A study of Homo sapiens with 2 samples.

Results

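The genes described here are the 10 that load and form the replicative helicase and its clamp: MCM2, MCM3, MCM4, MCM5, MCM6, MCM7, MCM10, CDC6, CDT1 and PCNA. They were chosen by name, out of 19970 protein-coding genes on chromosomes 1 to 22 and X, and every S9.6 peak from 1000 bp before to 1000 bp after each gene's span was taken. The data are a CUT&Tag library made with S9.6, an antibody against RNA-DNA hybrids, from A549, a cell line of human lung cancer, with wild-type genotype and no treatment in the labels. CUT&Tag uses an antibody to steer a transposase, which cuts and tags the DNA beside it. By its title the study links R-loops to YTHDF1, a reader of m6A in RNA, and to immunity; YTHDF1 was not perturbed in these libraries. A second library of the same wild-type cells, with non-specific IgG, was not analysed here. Whether it served as the control when the peaks were called is not given. Beyond that unknown step, hybrid-dependent signal was not separated from antibody-independent tagging. There is 1 library and no replicate, so every value below describes this peak list and none carries a test between conditions.

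Before a cell enters S phase, CDC6 and CDT1 help the origin recognition complex to place the MCM2 to MCM7 ring on DNA, a step called licensing. At the start of replication the ring becomes the core of the moving helicase, for which MCM10 is needed, and PCNA is the sliding clamp that holds DNA polymerases on the template. The genes are transcribed around the transition from G1 to S phase, and E2F factors that bind their promoters are known regulators of many of them. An R-loop, in which nascent RNA pairs with its template, tends to form near active promoters rich in G and C.

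Of the 10 genes, 9 had at least 1 S9.6 peak, 17 peaks in all, and MCM2 was the exception. Over the same windows, 60.4% of all protein-coding genes had a peak. The highest peak reached a maximum coverage of 5 or more at 5 of the 10, against 17.8% of protein-coding genes. A peak within 1000 bp of either end of the span was present at 8 of the 10 (80.0%, 95% Wilson interval 49.0 to 94.3), against 40.1% of protein-coding genes, and at 5 of them it reached a maximum coverage of 5 or more, against 14.5%. Among the 10769 protein-coding genes with spans between those of CDT1 and MCM5, from 5.47 to 54.9 kb, the shares were 59.7% over spans and 43.5% at the ends. The genes were listed with earlier results of these data known, so these counts are a description.

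The peak list gives for each peak its position, a total signal (coverage summed over the bases of the peak) and a maximum coverage, the most fragments lying over any base, with the region where that maximum is reached. Both are whole numbers, and nothing in them points to scaling by depth. The list is shallow: of 45756 peaks on these chromosomes, the median width was 685.5 bp, the median total signal 986 and the median maximum coverage 2. The lowest total in the list was 745, so a gene without a peak may still hold signal below what was listed. As a check of the label, CDKN2A, CDKN2B and MTAP, which lie in the 9p21 region that A549 cells are known to lack, had no peak. Over the same windows 60.4% of all protein-coding genes had one, so the absence at these neighbouring genes is a weak check. Of 6 epithelial genes 5 had a peak, KRT8 the highest at 8 and EPCAM none; of 4 leukocyte genes 2 had one, and of 5 endothelial and fibroblast genes 4 did, at no more than 4. Peaks are not expression, so these lists bear little on cell type.

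**Figure D1:**
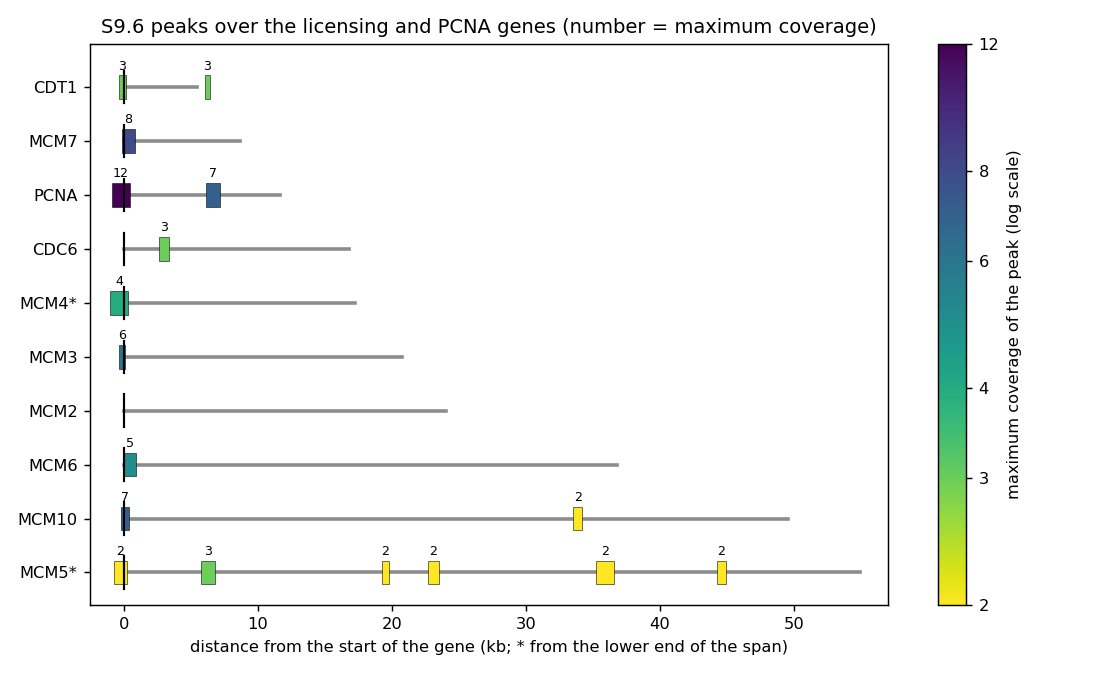
Each row is 1 of the 10 genes, ordered by length, with its span as a grey line from its start (black tick) and its S9.6 peaks as boxes to scale along the x axis in kb; colour and number give the maximum coverage. MCM4 and MCM5, marked with an asterisk, are drawn from the lower end of the span. Peaks of 5 or more lay at the outermost starts, except for the peak of 7 inside PCNA, which lay at its second annotated start. MCM2 had no peak.

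Where the peaks lay was read against promoter sequences, which show what DNA the S9.6 signal covered. Promoters, from 250 bases before to 50 after an annotated start, came from RefSeq on GRCh38.p14, and 8 of the 10 genes were matched; MCM4 and MCM5 were not listed. The 4 promoters below are shown because the whole region of highest coverage at that gene falls inside them; each runs 5′ to 3′ on the strand of the gene, and capitals mark the bases at maximum coverage. They are PCNA at chr20:5126573-5126872 (minus strand), MCM7 at its second annotated start, chr7:100100705-100101004 (minus strand), MCM10 at chr10:13161308-13161607 (plus strand) and MCM3 at chr6:52284693-52284992 (minus strand).
PCNA: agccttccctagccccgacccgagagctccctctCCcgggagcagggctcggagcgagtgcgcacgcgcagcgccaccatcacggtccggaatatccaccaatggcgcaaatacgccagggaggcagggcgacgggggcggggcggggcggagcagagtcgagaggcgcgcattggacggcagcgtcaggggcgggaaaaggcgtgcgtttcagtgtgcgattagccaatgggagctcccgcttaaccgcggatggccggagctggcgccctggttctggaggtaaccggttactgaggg
MCM7: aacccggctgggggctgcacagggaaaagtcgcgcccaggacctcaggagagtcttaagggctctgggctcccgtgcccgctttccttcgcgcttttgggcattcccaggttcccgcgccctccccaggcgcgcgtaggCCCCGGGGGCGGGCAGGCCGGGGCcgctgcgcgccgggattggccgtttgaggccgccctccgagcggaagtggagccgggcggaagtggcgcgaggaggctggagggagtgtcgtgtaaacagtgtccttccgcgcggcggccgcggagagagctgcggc
MCM10: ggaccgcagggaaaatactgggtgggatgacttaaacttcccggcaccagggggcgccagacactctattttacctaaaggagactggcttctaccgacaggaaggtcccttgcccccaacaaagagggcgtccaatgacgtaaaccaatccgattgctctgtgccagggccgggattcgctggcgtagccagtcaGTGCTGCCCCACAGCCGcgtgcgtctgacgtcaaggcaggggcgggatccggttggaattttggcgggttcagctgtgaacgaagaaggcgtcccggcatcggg
MCM3: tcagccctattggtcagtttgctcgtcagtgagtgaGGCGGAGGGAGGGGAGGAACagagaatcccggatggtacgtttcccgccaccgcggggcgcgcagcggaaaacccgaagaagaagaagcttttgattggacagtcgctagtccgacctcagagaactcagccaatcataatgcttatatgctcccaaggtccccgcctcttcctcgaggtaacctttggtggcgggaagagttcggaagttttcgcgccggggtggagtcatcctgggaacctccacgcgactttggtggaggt

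The capitals are 2 bases in PCNA, 24 in MCM7, 17 in MCM10 and 20 in MCM3. In MCM7 they are almost all G and C and hold the word GGGCGG, the binding core of SP1-type factors known as a GC box. Those bases also lie inside AP4M1, an overlapping gene on the other strand. In MCM3 the capitals are a purine-rich run of the gene's own strand. In MCM10 the maximum lay from 54 to 38 bp before the start, in MCM3 from 214 to 195 bp before it and in PCNA 216 to 215 bp before it. At CDT1, whose promoter is not shown, 186 of the 223 bases at its maximum of 3 lay in the promoter.

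PCNA, the clamp, had the highest peak of the 10. Its start peak, on chromosome 20 from 5126168 to 5127530, was 1363 bp wide with a total signal of 5232 and a maximum coverage of 12. Of all peaks, 0.898% had a maximum as high and 1.23% a total as high; of protein-coding genes with a peak over the span, 2.40% reached 12. The peak ran from 908 bp before the PCNA start to 454 bp inside the gene. It also covered the start of CDS2, an enzyme gene of phospholipid synthesis transcribed the other way, whose start is 386 bp from that of PCNA; 523 bp of the peak lay in CDS2 and 455 bp in PCNA. Which of the genes the signal belongs to cannot be told apart, since the peaks carry no strand.

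PCNA also had a second peak within the gene, from 5119439 to 5120516, with a width of 1078 bp, a total of 2820 and a maximum of 7. It covered the second annotated PCNA start, 6.66 kb into the longest span, and the whole of PCNA-AS1, an antisense lncRNA of 384 bp. Its maximum lay over 87 bp of the promoter of that second start, and LOC124900464, a snoRNA gene, lay 901 bp from the peak. A further peak of maximum 7 and total 2696 lay 1423 bp beyond the other end of PCNA, outside the window, beside TMEM230. PCNA was thus covered by peaks over 17.9% of its window, the largest share among the 10 genes.

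**Figure D2:**
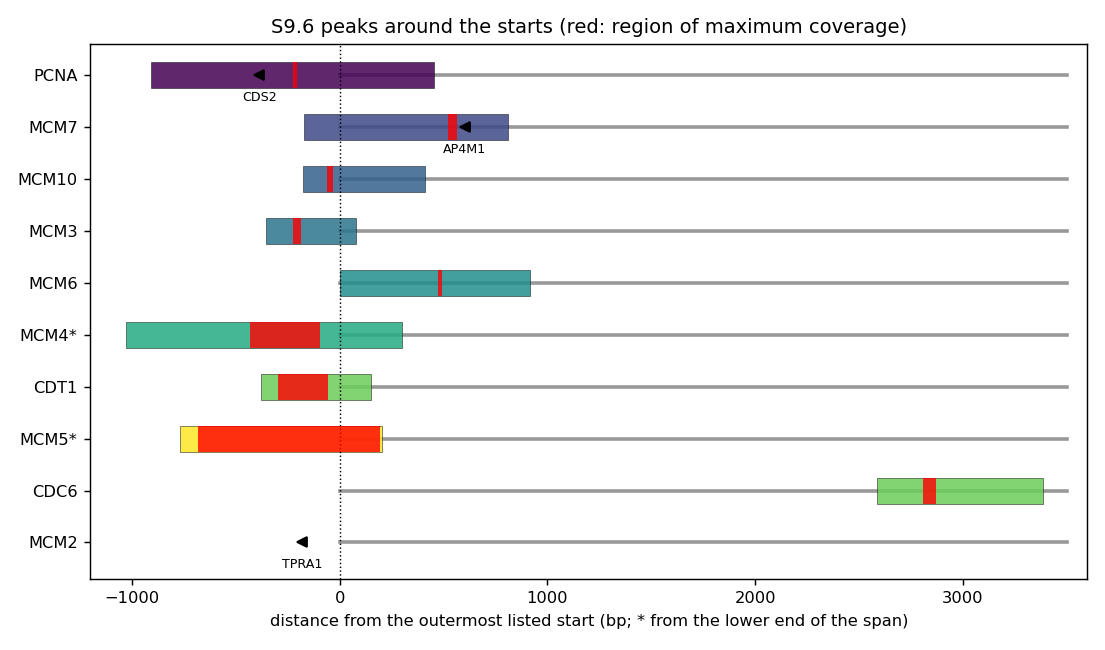
Peaks around the starts of the 10 genes, with distance from the outermost annotated start in bp on the x axis (for MCM4 and MCM5, from the lower end of the span). Boxes are peaks to scale, coloured by maximum coverage as in the map of whole genes; red is the region of maximum coverage, widened slightly to be visible, and black arrowheads are starts of protein-coding genes transcribed the other way. The PCNA and MCM7 peaks cover the starts of CDS2 and AP4M1, while the closely paired outermost starts of MCM2 and TPRA1 have no peak.

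The helicase ring was next. MCM7 had the second highest maximum. Its single peak, on chromosome 7 from 100100584 to 100101566, was 983 bp wide with a total signal of 4130 and a maximum coverage of 8. Its mean coverage of 4.20 was above the 3.84 of the PCNA start peak and the highest of the 17 peaks. MCM7 has 3 annotated starts, and the peak covered the first and second, with the maximum 532 to 555 bp inside the gene. AP4M1, an adaptor protein subunit, starts within the peak on the other strand: the spans of both genes overlap by 604 bp and their starts are 603 bp apart. The maximum, from 100100842 to 100100865, lay in this overlap, just past the AP4M1 start at 100100794. Which of the genes the signal belongs to cannot be told apart here either. No peak lay within 1000 bp of MIR25, MIR93 or MIR106B, the microRNA genes inside MCM7, or of its other neighbour COPS6.

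MCM3 and MCM6 had peaks of their own, with no other annotated gene within 1000 bp. The MCM3 peak, on chromosome 6 from 52284661 to 52285098, was narrow, at 438 bp, with a total of 1375 and a maximum of 6. Of its bases, 356 lay before the start and 82 inside the gene. The MCM6 peak, on chromosome 2 from 135875526 to 135876440, was 915 bp wide with a total of 1877 and a maximum of 5. It lay on the other side of the start, from 3 to 917 bp inside the gene, and reached its maximum 482 to 487 bp inside. Thus 0 of the 915 bp lay before the start, and the peak took in 47 of the 300 promoter bases.

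MCM4 had a peak at the lower end of its span, on chromosome 8 from 47959913 to 47961241, 1329 bp wide with a total of 3162 and a maximum of 4. That total is reached by 3.53% of all peaks, while 18.5% reach its maximum, so the signal was spread over a broad peak. It extended over the gap of 805 bp to PRKDC, the catalytic subunit of DNA-dependent protein kinase, and 224 bp into that gene. The maximum lay in the gap, from 421 to 100 bp outside MCM4. The pair is known to share a divergent promoter.

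MCM5, the longest of the genes, had the most peaks, all of them low. Its 6 peaks on chromosome 22 had maxima of 2 or 3 and totals from 954 to 1817. The first, from 35399371 to 35400342, covered the lower end of the span with a maximum of 2 and a total of 1421. The other 5 lay within the gene, 5.77 to 44.9 kb from that end; the one at maximum 3 ran from 35405908 to 35406905. Of protein-coding genes of 50 to 60 kb, 7.55% had 6 or more peaks.

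MCM2 had no peak from 1000 bp before to 1000 bp after its span on chromosome 3, 127598411 to 127622436. The nearest peak was 4239 bp beyond its end, with a maximum of 2 and a total of 805. MCM2 starts 180 bp from the outermost start of TPRA1, a gene transcribed the other way, and no peak covered that shared interval. Peaks of 3 and 4 lay more than 7 kb away inside TPRA1, that of 4 within 1000 bp of another annotated TPRA1 start. Such head-to-head partners, meaning outermost starts on opposite strands at most 1000 bp apart, were counted over all protein-coding genes. Of 2018 genes with a partner, 59.8% had a peak within 1000 bp of any annotated start, against 35.2% of the genes without one. Both genes of a pair can be counted through the same peak, so these genes are not separate observations. PCNA and MCM7 belong to the first kind together with MCM2. MCM4 and MCM5 have no annotated start here and could not be classed.

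MCM10 had 2 peaks. The one at its start, on chromosome 10 from 13161380 to 13161971, was 592 bp wide with a total of 1341 and a maximum of 7. It combined a high maximum with a low total: 3.81% of all peaks had a maximum as high and 22.3% a total as high. A second peak lay inside the gene, 33.5 to 34.2 kb from the start, with a maximum of 2 and a total of 925, the second lowest of the 17. No other gene lay within 1000 bp of either.

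The licensing factors CDC6 and CDT1 had low peaks. CDC6 had a peak on chromosome 17 from 40290467 to 40291266, with a maximum of 3 and a total of 1042. It lay 2588 to 3387 bp inside the gene, so no peak touched its start or either end. CDT1 had a start peak on chromosome 16 from 88803412 to 88803940, with a maximum of 3 and a total of 957. This peak ran from 377 bp before the start to 151 bp inside the gene and covered all 300 promoter bases. The second peak counted for CDT1, from 88809817 to 88810242 with a maximum of 3 and a total of 793, began 559 bp beyond the end of CDT1 and lay wholly in its neighbour APRT, adenine phosphoribosyltransferase. A higher peak of APRT, with a maximum of 5 and a total of 4254, lay 1415 bp from CDT1 and outside its window.

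The order of the highest maximum was PCNA at 12, MCM7 at 8, MCM10 at 7, MCM3 at 6, MCM6 at 5, MCM4 at 4, and MCM5, CDC6 and CDT1 at 3. The median over the 9 genes was 5, against 3 over all protein-coding genes with a peak in the same window. Exact 95% Poisson intervals, which cover counting error only and treat the maximum as a count of fragments, reached down to 6.20 for PCNA and up to 8.77 for the genes at 3. They overlap, which by itself does not show whether the counts differ, and the genes were not tested against each other. MCM2, with no peak, was not in this order. No interval is given for MCM2, since the absence of a listed peak is not a count of fragments and the gene may hold signal below what was listed. At starts, 5 of the 8 genes with an annotated start had a maximum of 5 or more, against 15.1% of protein-coding genes. A start peak of any height was present at 6 of 8, against 38.4%, and the 6 had a median maximum of 6.5, against 4 over all genes with a start peak.

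**Figure D3:**
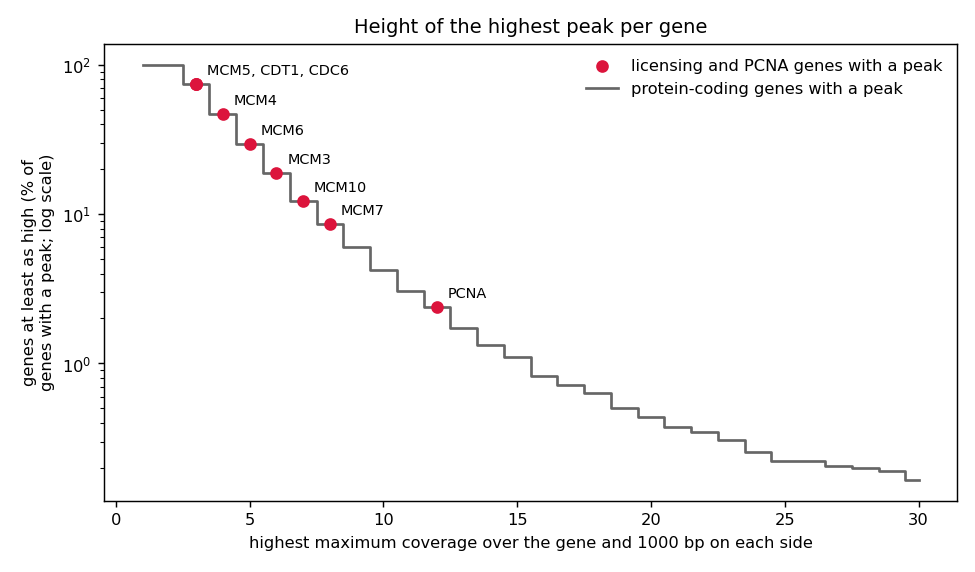
The x axis is the highest maximum coverage over a gene and 1000 bp on each side; the y axis, on a log scale, is the share of protein-coding genes with a peak that are at least as high. Red points are the 9 genes with a peak and the grey line all protein-coding genes with one. PCNA stands where 2.40% of those genes are as high and MCM7 where 8.55% are, while MCM5, CDT1 and CDC6 stand at 73.9%.

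The 9 peaks at an end of a gene had a median maximum of 5 and a median total of 1421; the 8 within had a median maximum of 2 and a median total of 1035. The values overlapped: the PCNA peak at its second start had a maximum of 7 and an inner MCM5 peak a total of 1817, while the end peaks of CDT1 and MCM5 had maxima of 3 and 2. Of the 17 peaks, 5 had another annotated gene within 1000 bp, and in 4 that was a protein-coding gene: CDS2, AP4M1, PRKDC or APRT. The 12 remaining peaks belonged to the listed gene alone.

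The density of peaks around the genes did not follow these heights. Within 500 kb on either side, the list held 5.79 peaks per Mb around MCM6 and 9.80 around MCM3, where the start peaks reached 5 and 6. Around CDT1 it held 144 peaks per Mb and around CDC6 85.6, where no peak of the gene was above 3. PCNA and MCM7 lay between, with 40.5 and 55.5 peaks per Mb, and MCM2, with no peak, had 15.6. Copy number and mappability also differ between regions, and their part in these densities was not tested.

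E2F factors are the known regulators of these promoters, so words of that type were searched in the 8 promoters: TTCCCGC and TTCGCGC as well as TTGCCGC and TTGGCGC, on both strands. At least 1 was found at the outermost start of 7 of the 8, against 17.0% of 15811 protein-coding promoters and 13.0% of 27195 promoters of all classes. MCM10 had none. The 3 promoters below are shown because they hold E2F-type words and no peak covers those words. Capitals mark the words, which overlap where words on opposite strands share bases. They are MCM6 at chr2:135876394-135876693 (minus strand), MCM2 at chr3:127598161-127598460 (plus strand) and CDC6 at chr17:40287629-40287928 (plus strand), each 5′ to 3′.
MCM6: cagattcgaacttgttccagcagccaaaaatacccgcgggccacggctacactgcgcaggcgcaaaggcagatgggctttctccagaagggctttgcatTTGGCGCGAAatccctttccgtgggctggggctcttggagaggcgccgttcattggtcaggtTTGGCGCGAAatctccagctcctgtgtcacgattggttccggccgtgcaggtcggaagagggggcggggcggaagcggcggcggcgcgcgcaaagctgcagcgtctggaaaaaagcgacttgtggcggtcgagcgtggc
MCM2: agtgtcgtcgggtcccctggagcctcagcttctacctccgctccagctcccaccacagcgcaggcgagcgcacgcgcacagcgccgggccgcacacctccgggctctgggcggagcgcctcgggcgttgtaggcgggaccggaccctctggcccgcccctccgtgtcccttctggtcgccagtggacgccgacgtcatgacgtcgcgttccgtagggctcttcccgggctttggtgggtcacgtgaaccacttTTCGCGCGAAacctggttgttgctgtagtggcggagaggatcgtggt
CDC6: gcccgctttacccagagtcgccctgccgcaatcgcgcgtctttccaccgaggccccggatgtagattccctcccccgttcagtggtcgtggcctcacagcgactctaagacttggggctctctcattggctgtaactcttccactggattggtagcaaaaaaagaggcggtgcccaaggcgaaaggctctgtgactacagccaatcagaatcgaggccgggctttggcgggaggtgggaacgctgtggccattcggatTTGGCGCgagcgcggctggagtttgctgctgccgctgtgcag

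MCM6 holds the same 10-base site in 2 places, beginning 151 and 89 bp before the start, and its S9.6 peak began after both. MCM2 holds a single site that begins 3 bp inside the gene, and CDC6 has 1 of the searched words, which begins 8 bp inside it. PCNA has 1 word, 59 bp before its outermost start, inside the peak and 156 bp from the maximum, and none at its second start. CDT1 has 2, at 35 and 23 bp before the start, and MCM3 has 3, at 173, 23 and 3 bp before it, all inside their peaks. MCM7 has 3 at its first start: those at 8 and 5 bp before it lay inside the peak, and the one at 187 bp before it lay outside. At its second start, words 164 and 140 bp before it lay inside the peak, 47 and 23 bp from the maximum. The third start of MCM7 had none. Such words were thus found both under peaks and outside them.

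The CCAAT word, bound by NF-Y, was found in 6 of the 8 promoters, against 36.4% of protein-coding promoters, and was not found in CDT1 or MCM2. The GC box GGGCGG was in 6 of 8, against 58.3%; PCNA had 4, and CDC6 and MCM3 had none. The E-box CACGTG was in MCM2 and MCM7, 2 of 8, against 8.82%. The word TTTGAA, a CHR element of genes expressed late in the cell cycle, was in 0 of 8, against 12.2%. At least 4 runs of GGG on either strand were in 8 of 8, against 91.6%. A match to letters is not a binding site, and a missing match says only that those letters are not in these windows.

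Base composition did not separate the genes with a start peak from MCM2 and CDC6. The 8 promoters held 57.3% to 74.3% G and C, with a median of 65.0%, against 65.7% over 6065 protein-coding promoters with a start peak and 60.0% over 9746 without. MCM2, with no peak, had 68.3% and MCM3, with a peak of 6, had 57.3%. GC skew, the excess of G over C on the strand of the gene as a share of both, ranged from -0.16 at CDT1 to 0.16 at MCM6, with a median of 0.058; the medians over promoters with and without a start peak were 0.010 and 0.0066. PCNA had 0.14, MCM3 0.12, CDC6 0.033 and MCM2 -0.024.

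**Figure D4:**
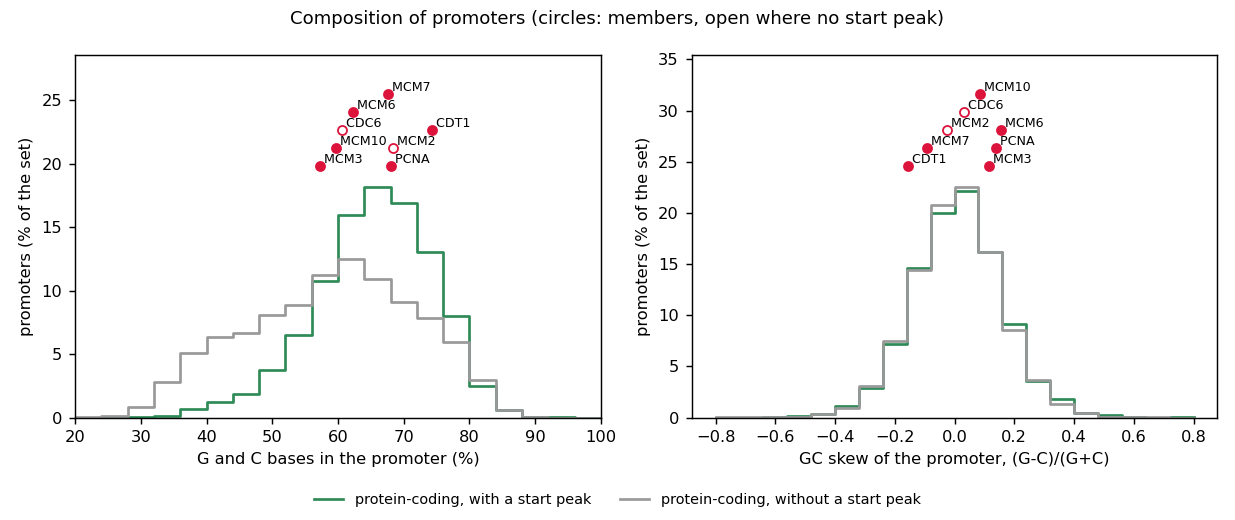
The share of protein-coding promoters (y axis, % of each set) by G and C content (left, %) and by GC skew (right, no unit), for promoters with a start peak (green) and without (grey). Red circles above the curves mark the 8 licensing and PCNA promoters, open for MCM2 and CDC6, which had no start peak; their height has no meaning. Both open circles lie among the filled ones.

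The other genes of replication were grouped in 7 lists of 70 genes. Of these, 50 had a peak over the span (71.4%) and 40 at an end (57.1%, 95% Wilson interval 45.5 to 68.1), against 60.4% and 40.1% of protein-coding genes. An end peak of 5 or more was present at 21 of 70. Of the helicase activators, which turn the loaded ring into a helicase, 9 of 13 had an end peak, led by CDC45 with a maximum of 9 and GINS4 with 7. Of the origin recognition and licensing control genes, 7 of 11 did, led by ORC6 with 9 and the histone acetyltransferase KAT7 with 6. ORC1, ORC2 and ORC3 had no peak, and the paralogs MCM8 and MCM9 had maxima of 4 and 2. GMNN, which encodes the CDT1 inhibitor geminin, had 4.

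Single-strand binding and fork protection genes had an end peak in 5 of 7 cases, with 7 at CLSPN and 5 at RIF1. Clamp loaders and partners of PCNA had 9 of 16, with 8 at the methyltransferase DNMT1 and 5 at the flap endonuclease FEN1, and none over RFC1 or RFC4. DNA polymerases and primase had 6 of 12, with 6 at POLD1 and POLD2 among others. The list named for CDT1 degradation, which also holds the histone methyltransferase KMT5A, had 3 of 6, with 6 at CUL4A and DTL. Genes of ribonucleotide supply had 1 of 5, TK1, with a maximum of 7. Each list is small, as the intervals show, and the lists were not tested against each other or against the 10 genes.

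**Figure D5:**
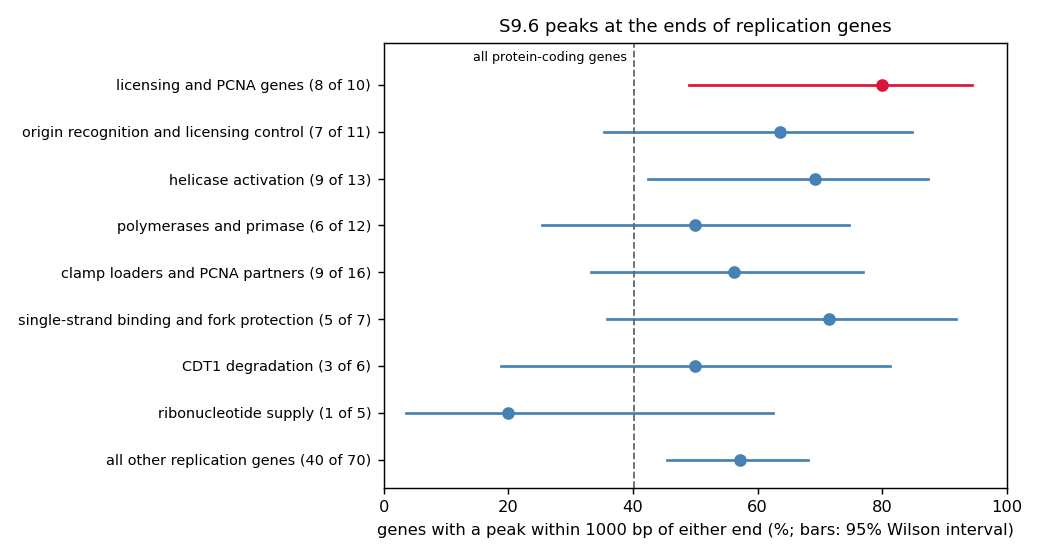
Points are the share of genes (x axis, %) with a peak within 1000 bp of either end of the span. Red marks the 10 licensing and PCNA genes and blue the other replication genes. Bars are 95% Wilson intervals, which treat genes as drawn at random. The genes were chosen by name, so the bars show how small each list is and are no test. The dashed line is the 40.1% of all protein-coding genes. The red point is at 80.0% and its interval, 49.0 to 94.3, overlaps those of the other lists.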

How the data were processed

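S9.6 CUT&Tag of A549 cells gave 1 peak list. Per the submitters' processing notes, SEACR 1.3, Bowtie2 2.4.2, fastp 0.23.2, deepTools 3.5.2, SAMtools 1.9 and bedtools 2.30.0 were used, with GRCh38. Their roles, the peak threshold and the use of IgG as control are not given in these sources. The deposited values are a total signal and a maximum coverage per peak; the layout of 6 columns is that of SEACR, and in no peak did the total exceed width times maximum. Sequencing depth is unknown.

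Peaks on chromosomes 1 to 22 and X were used, and 2054 on other sequences were left out. Genes came from RefSeq for GRCh38.p14, and positions are 1-based. A peak counted for a gene with 1 base in the window of 1000 bp. Shares of listed genes with an end peak carry 95% Wilson intervals, which treat genes as random draws and serve as description only. Members and lists were chosen with earlier results of these data known, and no test was run. Named genes were all members, all genes sharing their peaks and the 2 highest of each list, except for a gene not reported here; other names, among them those without a peak, were chosen after their values were seen. Python 3.11.15, pandas 2.3.3 and scipy 1.17.1 were used, and the overlap code was checked on simulated peaks against bedtools 2.31.1.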

Additional observations from a re-analysis of the deposited data

How the results depend on the processing

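Over 8 alternatives (windows of 500, 2000 or 0 bp, higher peaks, or another overlap), 50 of 56 values of the main counts stayed within 1.5 times. With peaks of maximum coverage 3 or more, 11 peaks were assigned to the 10 genes in place of 17. With peaks of 5 or more there were 6, and 5 genes had a peak over the span and 5 at an end, against 17.8% and 14.5% of protein-coding genes; of the other replication genes 23 and 21 did. That follows from the setting, which removes MCM4, MCM5, CDC6 and CDT1. CDT1 also lost its peaks among the higher 50% of peaks by total signal, and reached 5 with windows of 2000 bp, through APRT. Protein-coding genes with similar spans, a comparison added after the data were seen, had an end peak in 43.5% of cases in place of 40.1%. No paired analysis was possible because the list comes from 1 library and no result comes from a test. With maxima this low, absence of a peak is not absence of signal.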

Other observations

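Across all protein-coding promoters, a start peak was found at 45.0% of 2695 with an E2F-type word and 37.0% of 13116 without. With promoters in 5 classes of G and C content, the shares with and without a word were 22.7% and 12.8% in the lowest class, 33.3% and 34.3% in the next, 47.9% and 45.5% in the middle class, 51.1% and 53.1% above it and 47.0% and 45.7% in the highest. The order of the shares thus differed between classes, and no test was run.

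In the list named for CDT1 degradation, the end peaks of CUL4A, DTL and the histone methyltransferase KMT5A each reached 6, while DDB1 and SKP2 had none over the span. RNASEH2A, the catalytic subunit of an enzyme that removes RNA from hybrids, had no peak, nor did TYMS, thymidylate synthase, or CHAF1A.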
